A study of Mus musculus with 6 samples.

Results

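The pyruvate dehydrogenase complex joins glycolysis to the citric acid cycle, and its subunit, kinase and phosphatase genes are described here in brown adipocytes with and without the PGC-1 coactivators. The genes were Pdha1, Pdhb, Dlat, Pdhx, Pdk1, Pdk2, Pdk3, Pdk4, Pdp1 and Pdp2, and every array probe set annotated to 1 of these symbols alone was taken. That gave 18 probe sets for 10 genes, out of 18193 genes named on the array. RNA came from mouse brown preadipocytes, immortalised with the SV40 large T antigen and differentiated for 7 days. The 3 groups were wild-type cells (WT, no siRNA named in the titles), PGC-1alpha -/- cells expressing a control siRNA (knockout-control), and PGC-1alpha -/- cells expressing an siRNA specific for PGC-1beta (knockdown). Each group had 2 arrays, which the series design calls biological replicates. A passage number is labelled for the wild-type cells alone, and a mixed mouse background for wild-type array 2 alone. The number of independent cell lines per genotype is not stated in the labels, so genotype, cell line and siRNA cannot be told apart in comparisons with wild type.

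Pyruvate dehydrogenase turns pyruvate into acetyl-CoA inside mitochondria and so sets how much glucose carbon is burned or built into fat. Pdha1 and Pdhb encode the alpha and beta subunits of E1, the decarboxylase. Dlat encodes E2, the acetyltransferase at the core, and Pdhx encodes the E3-binding protein that holds the last enzyme. Pyruvate dehydrogenase kinases (Pdk1 to Pdk4) switch E1 off by phosphorylating its alpha subunit, and the phosphatases (catalytic subunits Pdp1 and Pdp2) switch it on again. In fasting and in tissues that burn fatty acids, Pdk4 is the kinase best known to be raised, through PPAR, glucocorticoid, FOXO and oestrogen-related receptors, some of which use PGC-1 as a coactivator. Pdk1 is known as a target of the hypoxia factor HIF-1.

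The array medians lay between 220.9 and 242.7, and knockdown array 2 had the lowest median and the lowest upper quartile (502.8, against 547 to 599.6 on the others). Ppargc1b, the PGC-1beta gene, read 2850 and 3162 in wild type, 1862 and 2302 in knockout-control and 533.8 and 223.8 in knockdown cells. The 5 probe sets of Ppargc1a, the PGC-1alpha gene, read from 516.9 to 1338 in wild type from 281.8 to 830.4 in knockout-control and from 268.4 to 1146 in knockdown cells, which carry the same deletion. On 1 of these sets knockdown array 1 (709.5) lay within the wild-type values (702.8 and 734.2). The labels do not place these probes relative to the deleted stretch, so their signal is a weak check of the genotype. The brown adipocyte markers Ucp1, Cidea, Adipoq, Fabp4 and Pparg were all above the filter on dim genes. Ucp1, the heat-producing uncoupling protein, read 4488 and 4761 in wild type and 155.8 and 104.7 in knockdown cells, so the knockdown cells bore the general adipocyte markers with little Ucp1. Eif2s3y, on the Y chromosome, read 872.4 and 960.5 in wild type; knockout-control array 2 read 6.25, knockdown array 2 read 5.13 and both other arrays were missing, so sex also cannot be told apart from genotype; Pdha1 and Pdk3 are X-linked.

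**Figure D1:**
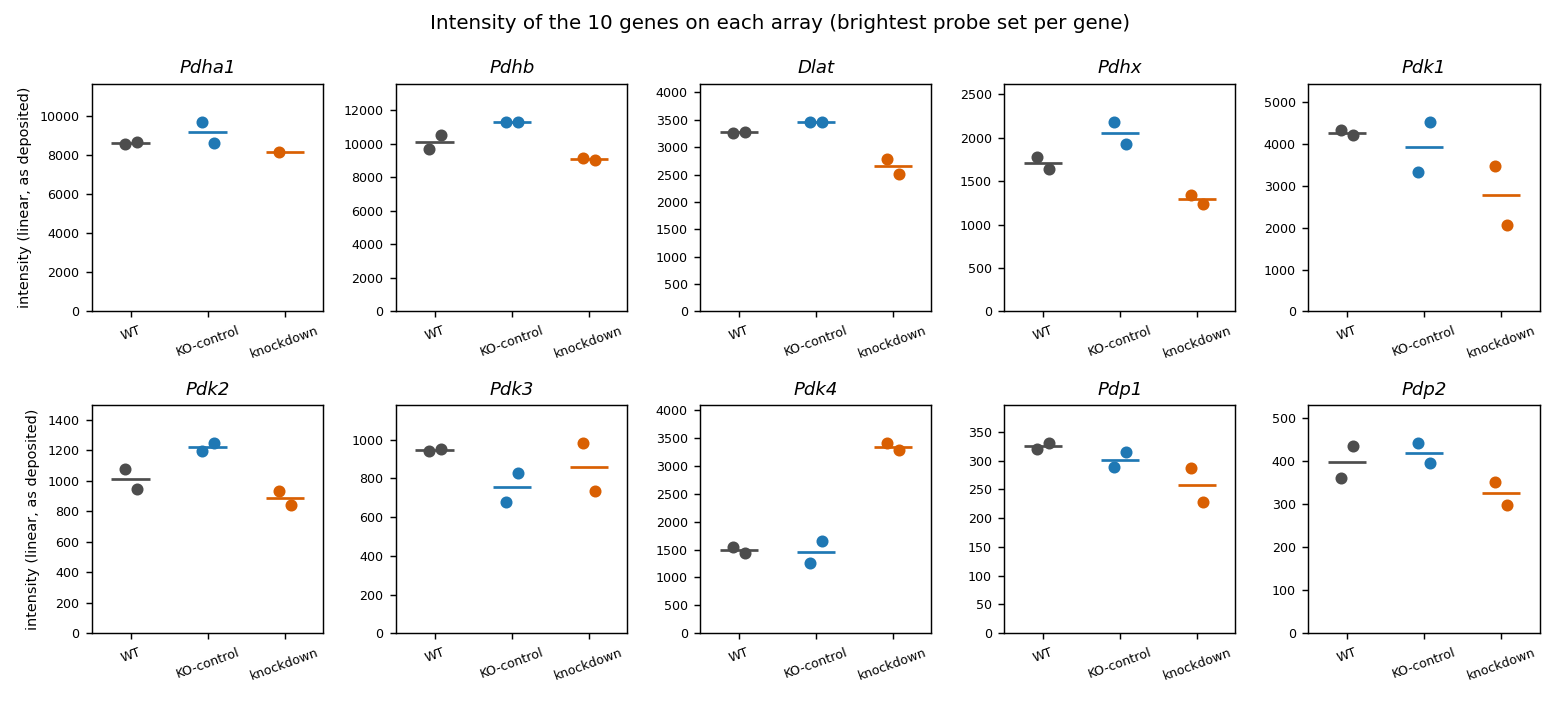
Intensity on the linear scale as deposited (y axis, from 0) of the brightest probe set of each gene, with 1 point per array and a bar at the group mean of 2 arrays. Pdk4 reads 3404 and 3277 in knockdown cells and no more than 1661 elsewhere; Pdha1 has 1 knockdown array.

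Pdk4 was higher in knockdown cells than in both other groups and passed the test in both comparisons, while no subunit, other kinase or phosphatase gene passed in any comparison. Of the 10 genes, 8 had a negative difference from knockout-control to knockdown (51.1% of all genes did), with single-gene differences too small to pass beside the spread of 2 arrays. Between knockout-control and wild type the fold changes of the 10 genes ran from -0.32 to 0.27 on the log2 scale. All fold changes are on the scale of log2(intensity + 32) from the brightest probe set of a gene, with the standard error (SE) of the fit, and a gene was called when its limma p, adjusted by Benjamini-Hochberg over all genes, was under 0.05.

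Among the kinases, Pdk4 read 1539 and 1443 in wild type, 1259 and 1661 in knockout-control, and 3404 and 3277 in knockdown cells. Both knockdown arrays lay above the other 4, and the wild-type and knockout-control arrays overlapped. The wild-type mean was 1491 ± 67.9 (SD, n = 2), that of knockout-control cells 1460.1 ± 285 and that of knockdown cells 3340.3 ± 90. Pdk4 rose 2.28-fold from knockout-control to knockdown (log2 fold change 1.19 ± 0.17 SE, 95% interval 0.81 to 1.57, limma adjusted p = 0.0279). Against wild type it rose 2.22-fold (1.15 ± 0.17, 95% interval 0.77 to 1.53, limma adjusted p = 0.00518). From wild type to knockout-control the gene differed by -0.04, with a 95% interval from -0.42 to 0.34 (0.927 after adjustment in limma), and its sign turned after quantile normalization (0.02). In the knockdown step Pdk4 ranked 20 among 13649 genes by size of rise, and its probe set was the single one for the gene. Without knockout-control array 1 or 2 that call was lost (limma adjusted p = 0.178 and 0.101, log2 fold changes 0.99 and 1.39). Keeping dim genes in the fit (0.127) also lost it, as did averaging the probe sets of every gene (0.0605) and entering the replicate number as a block (0.0835), while against wild type the rise passed in all 19 alternatives.

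The promoter of Pdk4 is shown because it was the member called in the gene fit, with those of Pdhx, the subunit gene with the largest difference in the same step, and Pdhb, the member window with the most kinds of motif. Sequences are RefSeq windows of build GRCm38.p6, from 250 bases before to 50 after the start of the gene, read 5′ to 3′ on the gene's strand. Capitals mark matches on either strand to 7 searched motifs, namely AAGGTCA (half-site of oestrogen-related receptors), CCGGAAG (ETS), GCATGCG (core of the NRF1 site), TGACGT (core of the cAMP response element), TATAAA (the TATA box), CCAAT (the site of the factor NF-Y) and GGGCGG (the GC box).
Pdk4 promoter (chr6:5496229-5496528, minus strand): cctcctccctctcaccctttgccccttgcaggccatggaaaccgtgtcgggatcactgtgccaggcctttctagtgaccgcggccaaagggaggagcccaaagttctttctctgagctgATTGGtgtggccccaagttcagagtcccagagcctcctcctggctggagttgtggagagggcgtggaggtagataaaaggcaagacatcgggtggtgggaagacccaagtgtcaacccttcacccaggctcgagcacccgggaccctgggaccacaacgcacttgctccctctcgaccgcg
Pdhx promoter (chr2:103073464-103073763, minus strand): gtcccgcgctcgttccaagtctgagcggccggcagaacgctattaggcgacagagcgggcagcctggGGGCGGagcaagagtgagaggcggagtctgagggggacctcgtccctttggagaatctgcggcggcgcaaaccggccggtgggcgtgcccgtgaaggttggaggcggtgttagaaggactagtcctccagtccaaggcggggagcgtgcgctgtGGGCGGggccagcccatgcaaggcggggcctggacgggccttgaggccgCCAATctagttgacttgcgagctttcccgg
Pdhb promoter (chr14:8172943-8173242, minus strand): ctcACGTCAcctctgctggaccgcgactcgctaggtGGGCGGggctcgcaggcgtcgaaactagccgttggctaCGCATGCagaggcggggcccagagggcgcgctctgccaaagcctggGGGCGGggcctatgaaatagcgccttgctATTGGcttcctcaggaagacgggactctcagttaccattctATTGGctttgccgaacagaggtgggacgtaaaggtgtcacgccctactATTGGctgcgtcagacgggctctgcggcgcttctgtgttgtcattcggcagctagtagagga
In the Pdk4 window the capitals are a single inverted CCAAT box. In the Pdhx window they are a CCAAT box and GC boxes. The Pdhb window holds inverted CCAAT boxes, GC boxes, an NRF1 core and a cAMP element core, the latter pair found in no other member window. The table held 11 windows for 9 of the 10 genes, with Pdp1 not among them. None of the 11 held AAGGTCA, which 4.72% of all 32851 windows held, and none held CCGGAAG, which 8.86% held. CCAAT occurred in 6 of the 11, in windows of Pdhb, Pdhx, Pdk2, Pdk3, Pdk4 and Pdp2, against 37.4% of all windows. GGGCGG also occurred in 6, against 35.7% of all windows. A match describes letters in a short window and is no sign of binding, and a missing match speaks for these windows alone.

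Pdk2, a widely expressed kinase, read 1079 and 947.9 in wild type, 1199 and 1247 in knockout-control and 935 and 844.8 in knockdown cells. The knockdown arrays lay below all others, and the knockout-control arrays lay above all others. Its difference in the knockdown step was -0.45 ± 0.15 (95% interval -0.78 to -0.11, limma adjusted p = 0.218), opposite in sign to that of Pdk4, and the intervals of the 2 kinases did not overlap. The difference between the 2 kinases was not itself tested.

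Pdk1 had 4 probe sets, 1 of them too dim to be tested (13.22 to 102.5, with a missing value). The brightest read 4334 and 4212 in wild type, 3333 and 4538 in knockout-control and 3487 and 2066 in knockdown cells. Wild-type arrays were close together, while arrays in each of the other groups were far apart. Its differences were -0.13 ± 0.25 from wild type to knockout-control, -0.53 ± 0.25 in the knockdown step and -0.66 ± 0.25 between knockdown and wild type, none of which passed (limma adjusted p = 0.824, 0.391 and 0.138). The other probe sets above the filter gave -0.58 and -0.60 between knockdown and wild type, so the 3 were alike in this comparison. Without knockdown array 1 the gene passed in both comparisons with knockdown (-0.90 and -1.04, limma adjusted p = 0.0498 and 0.013), resting on knockdown array 2.

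Pdk3, on the X chromosome, read 939.2 and 951.8 in wild type, 680 and 829.4 in knockout-control and 980.6 and 734.5 in knockdown cells. The knockdown arrays lay on either side of the wild-type pair, 1 above it and 1 below, and overlapped the knockout-control range. It was the one member beside Pdk4 with a positive difference in the knockdown step (0.17 ± 0.18, 95% interval -0.24 to 0.58, limma adjusted p = 0.735), and the sign turned without knockdown array 1 (-0.03).

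**Figure D2:**
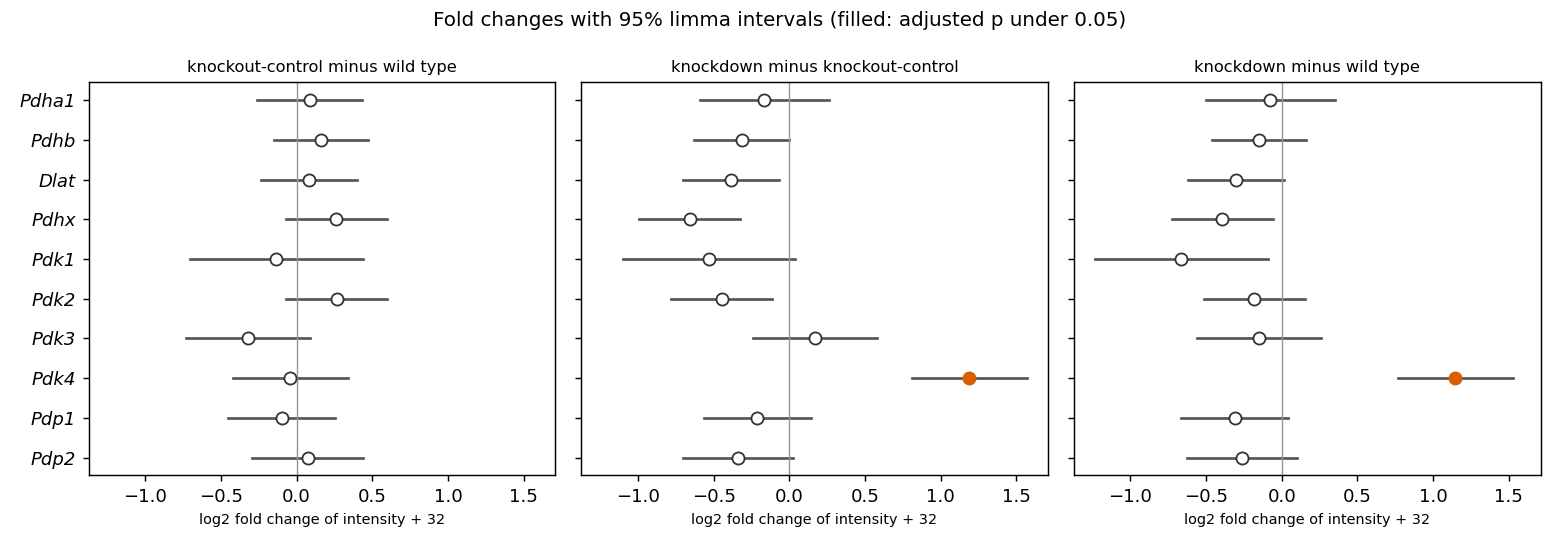
Log2 fold change of intensity + 32 (x axis) of the 10 genes in the 3 comparisons, with 95% limma intervals and filled points where the adjusted p was under 0.05. Pdk4 lies at 1.19 and 1.15 in the comparisons with knockdown cells, and Pdhx at -0.66 in the knockdown step is the nearest to passing among the rest.

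By their brightest probe sets the 4 subunit genes had positive differences from wild type to knockout-control and negative ones in the knockdown step, none of which passed; dimmer sets of Dlat and Pdhb had the opposite sign in the first of these comparisons (-0.32 and -0.06). Pdhx read 1775 and 1637 in wild type, 2184 and 1926 in knockout-control and 1343 and 1239 in knockdown cells, and no array of one group overlapped another group. Its difference in the knockdown step was -0.66 ± 0.15 (95% interval -0.99 to -0.32, limma adjusted p = 0.0838). Against wild type it was -0.39 ± 0.15 (limma adjusted p = 0.133), and between knockout-control and wild type 0.26 ± 0.15 (0.354). Without knockdown array 1 the knockdown step passed (-0.71, limma adjusted p = 0.0499).

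Dlat had 3 probe sets. The brightest, an x_at set whose probes may be shared with other transcripts, read 3259 and 3280 in wild type, 3457 and 3466 in knockout-control and 2789 and 2516 in knockdown cells. Both knockdown arrays lay below the other 4. The difference in the knockdown step was -0.38 ± 0.14 (95% interval -0.70 to -0.07, limma adjusted p = 0.267). The other probe sets gave -0.44 and -0.44 in this step, so all 3 had the same sign. The dimmest Dlat set read 922.7 and 803.6 in wild type, 637.3 and 736.9 in knockout-control and 564.4 and 438.9 in knockdown cells. With every probe set tested it passed between knockdown and wild type (-0.75 ± 0.18, limma adjusted p = 0.031, where 9.93% of all probe sets were called), where the brighter sets gave -0.34 and -0.30 and did not.

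Of the E1 genes, Pdhb had probe sets that differed in size of change in the knockdown step, while those of Pdha1 gave -0.16 and -0.18. Pdhb, at 9713 and 10512 in wild type, read 11334 and 11288 in knockout-control and 9153 and 9032 in knockdown cells on its bright probe set. Each group lay apart from the other groups, and the difference in the knockdown step was -0.31 ± 0.14 (limma adjusted p = 0.351). Its dim probe set read 1150 and 1220 in wild type, 1002 and 1287 in knockout-control and 873.1 and 526 in knockdown cells, with a difference of -0.72 ± 0.24 (limma adjusted p = 0.236 with every probe set tested). The bright set lies near the top of the scale, where the highest value of an array was 14016 to 15531, and the part of saturation was not tested. Pdha1, on the X chromosome, read 8554 and 8668 in wild type, 9696 and 8629 in knockout-control and 8161 on the 1 knockdown array with a number, and its fit rests on that array. The other Pdha1 set had all 6 values, 4846 and 4995, 6220 and 5590, and 5421 and 4973 in the same order of groups. Its difference was -0.18 ± 0.15 in the knockdown step and 0.08 ± 0.15 against wild type, both far from passing (limma adjusted p = 0.675 and 0.799).

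The phosphatase genes were the dimmest members. Pdp1 read 319.8 and 329.9 in wild type, 288.2 and 314.4 in knockout-control and 286.2 and 227.9 in knockdown cells, and a further Pdp1 set (109.9 to 180.9) was below the filter. Pdp2 read 360.8 and 433.1, 440.4 and 395.5, and 351 and 298.4 in the same order. The knockdown arrays lay below the other 4 for both genes. Differences in the knockdown step were -0.21 ± 0.15 for Pdp1 and -0.34 ± 0.16 for Pdp2 (limma adjusted p = 0.605 and 0.391), with 95% intervals from -0.56 to 0.14 and from -0.70 to 0.03.

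**Figure D3:**
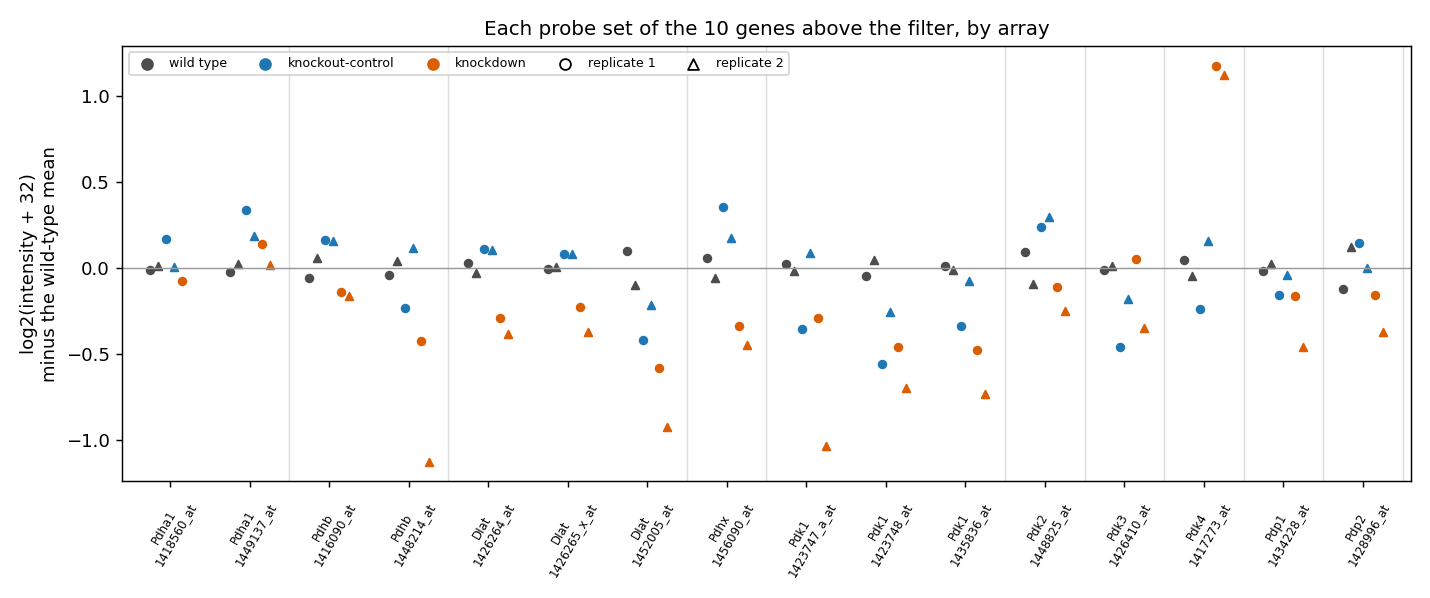
Log2(intensity + 32) minus the wild-type mean (y axis) for the 16 member probe sets above the filter (x axis), with circles for replicate 1 and triangles for replicate 2. Knockdown arrays stand below 0 on most sets and above 1 on the Pdk4 set, and knockdown array 2 lies below knockdown array 1 throughout where both have a value.

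Set against all genes tested, the members gave 1 call in the knockdown step, 1 of 10, where 0.835% of all 13649 genes were called (0.271% higher and 0.564% lower). Knockdown against wild type also gave 1 of 10, where 10% of all genes were called (4% higher and 6% lower), and knockout-control against wild type gave 0 of 10 in limma, where 6.05% were called (2.55% higher and 3.5% lower). At an unadjusted p under 0.05 the members numbered 5, 3 and 0 in these comparisons, where 14.1%, 25.5% and 21.1% of all genes passed. Groups did not overlap for 8 of 10 members in the knockdown step, where 39.5% of all genes did not overlap. Against wild type 9 of 10 members had a negative difference in knockdown cells, where 53.3% of all genes did. Groups were apart for 9 members in knockdown cells and for 6 in knockout-control cells, where 55.6% and 58.2% of all genes did not overlap. Pdha1 enters the knockdown counts on its 1 knockdown array with a number. Its set with all 6 values overlapped wild type in knockdown cells, with a difference of 0.08. The median log2 difference of the members in the knockdown step was -0.33, beside -0.01 over all genes tested, and it was -0.22 beside -0.03 against wild type. With arrays centred on the median, which allows for the lower overall level of knockdown array 2, the members' median in the knockdown step was -0.25 beside 0.07 over all genes. Without knockdown array 2 it was -0.20 beside 0.07. The 3 comparisons share arrays, so their values are not independent of each other.

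Markers of cell state moved in the same step. Of 5 brown adipocyte markers measured, Ucp1 and Cidea fell from knockout-control to knockdown and 3 did not pass, and the summed intensity of the 5 was 40486 to 42805 in knockout-control and 30159.7 to 32604.5 in knockdown cells (43227 to 43450.2 in wild type). Of 8 preadipocyte and fibroblast markers 1 rose in this step, Dlk1, which read 384.4 and 437.9 in knockout-control and 1609 and 1452 in knockdown cells; the summed intensity was 4882 to 5415 and 5896 to 6357. No muscle, macrophage or endothelial marker above the filter passed in this step. Those above it were 5 of 7 smooth muscle, 3 of 7 skeletal muscle, 4 of 6 macrophage and 2 of 4 endothelial markers. Of the preadipocyte and fibroblast list 7 of 8 were above it. The rest were too dim to be tested. Among them, the macrophage markers Cd68 and Itgam read 79.87 and 117.3, and 81.13 and 1.61, in knockout-control. In knockdown cells they read 213.4 and 200.5, and 71.9 and 56.4. Summed intensities were 3752 to 3870 and 3284 to 3367 for smooth muscle and 1185 to 1501 and 1633 to 1759 for skeletal muscle. They were 3004 to 3632 and 2882 to 3364 for macrophage and 680.5 to 714.4 and 615 to 686.2 for endothelial lists. Against wild type, the smooth muscle markers Acta2, Tagln and Cspg4 and the fibroblast collagen gene Col1a1 fell in knockout-control and in knockdown cells, with smooth muscle sums of 5418 to 5876 in wild type. Gata3 rose in knockout-control, and Dlk1 and Pdgfra rose in knockdown cells, against wild type. No marker was listed at 0, and the endothelial marker Pecam1 read no more than 61.76. The part of these markers in the values of Pdk4, the other members and the related genes was not tested, and in a culture fewer cells of a type and less RNA per cell cannot be told apart.

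Related genes showed called falls next to the complex in the knockdown step. The lists of related genes were counted against the 0.835% of all genes called. Of 7 measured genes of the sister 2-oxoacid dehydrogenases, 0 rose and 2 fell (list median -0.35). Ogdh, the E1 of the 2-oxoglutarate dehydrogenase of the citric acid cycle, read 3561 and 3276 in knockout-control and 1521 and 1261 in knockdown cells, a 2.43-fold fall (-1.28 ± 0.15, limma adjusted p = 0.0155). Dlst, its E2, fell 1.84-fold (-0.88 ± 0.15, limma adjusted p = 0.0448), from 3556 and 3413 to 2066 and 1717, and by the mean of its probe sets the difference was -0.48 and did not pass (limma adjusted p = 0.232). Both genes had wild-type values above those of knockdown cells, at 4137 and 3939 for Ogdh and 3715 and 3610 for Dlst. The remaining 5, which include the branched-chain enzyme genes Bckdha, Bckdhb and Dbt and the kinase gene Bckdk, did not pass.

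Of 18 measured genes of pyruvate supply and use, 0 rose and 2 fell (median -0.08). Pdpr, the regulatory subunit of pyruvate dehydrogenase phosphatase, read 1780 and 1851 in wild type, 1336 and 1432 in knockout-control and 728.9 and 598.6 in knockdown cells, and fell 2.04-fold in the knockdown step (-1.03 ± 0.15, limma adjusted p = 0.0322). The set that stood for Pdpr is an x_at set, whose probes may be shared with other transcripts. The other Pdpr probe sets gave -1.02, -0.78 and -0.08 in this step. None of these passed with every probe set tested (limma adjusted p = 0.0639, 0.0834 and 0.924). Ldhb, the lactate dehydrogenase subunit common in oxidative tissues, read 2783 and 2671 in knockout-control and 1042 and 1005 in knockdown cells, and fell 2.61-fold (-1.39 ± 0.14, limma adjusted p = 0.00657). All 4 Ldhb sets fell with every probe set tested, where 0.625% of all probe sets were called. Dld, the E3 that the complex shares with its sisters, read 3930 and 4457 in knockout-control and 3377 and 1858 in knockdown cells and did not pass (limma adjusted p = 0.239), with knockdown array 2 apart from array 1. The pyruvate carrier gene Mpc1 and the lactate dehydrogenase gene Ldha did not pass either (limma adjusted p = 0.84 and 0.871). Of 11 measured genes of lipoate and thiamine cofactors 0 passed in limma in this step (median -0.13).

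Among 17 regulators of Pdk genes, 0 rose and 2 fell, Ppargc1b itself, the target of the siRNA (5.53-fold), and Esrra (2.26-fold). Esrra, the oestrogen-related receptor alpha, read 949.9 and 926.4 in wild type, 1033 and 1226 in knockout-control and 498 and 464.1 in knockdown cells (-1.17 ± 0.15, limma adjusted p = 0.0202). This is the single Esrra set above the filter, and by the mean of all its probe sets the difference was -0.13 and did not pass (limma adjusted p = 0.933). Ppara, Ppard and Pparg, the PPAR genes, did not pass (limma adjusted p = 0.937, 0.732 and 0.557). Of 16 measured PPAR and glucocorticoid targets, 1 rose and 0 fell. It was Per1, a clock gene, from 439.5 and 585.9 to 1170 and 1041 (2.10-fold, 1.07 ± 0.17, limma adjusted p = 0.0387). Angptl4 and Plin2, PPAR targets of fat cells, did not pass (limma adjusted p = 0.775 and 0.456), and neither did Cpt1a, of fatty acid entry into mitochondria (0.111). Of 12 hypoxia targets 0 passed in limma. Each of the 7 calls in these lists was lost without at least 1 array, Ppargc1b, Esrra, Ogdh and Ldhb without either knockout-control array (highest limma adjusted p = 0.15, 0.138, 0.144 and 0.0888). Pdpr and Per1 were lost without either wild-type array or either knockout-control array, and Dlst was kept in the fit without knockdown array 1 alone (highest 0.178, 0.24 and 0.26).

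**Figure D4:**
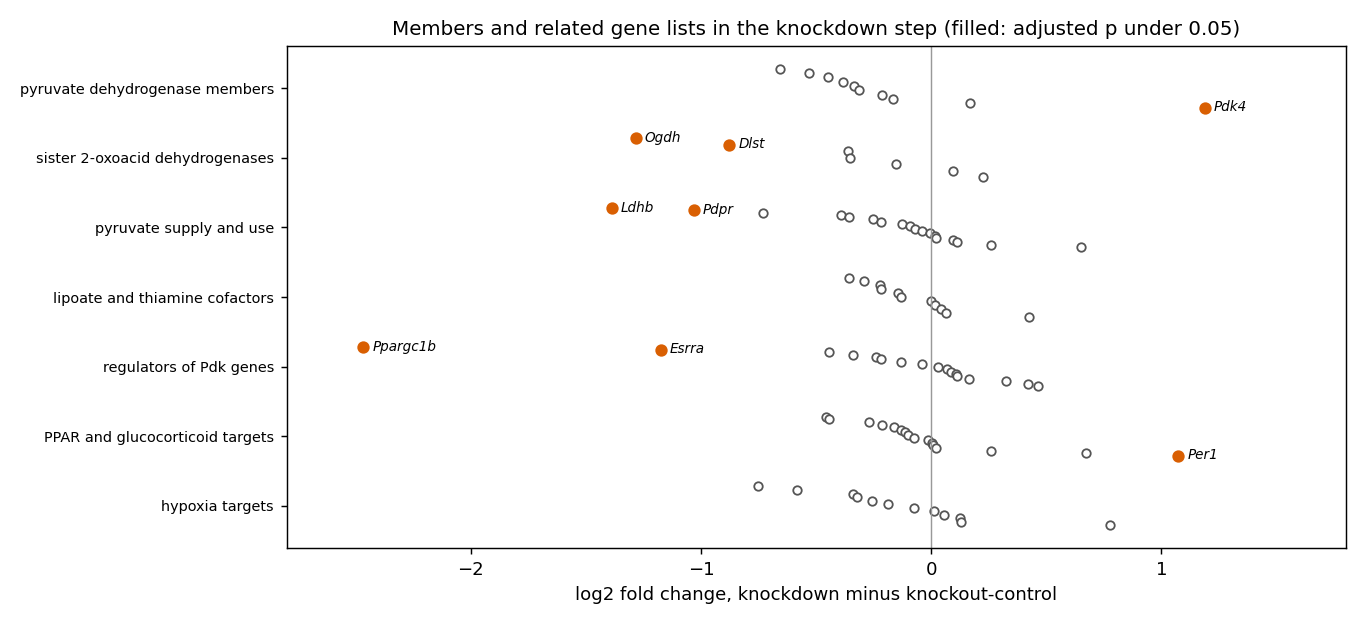
Log2 fold change from knockout-control to knockdown (x axis) of the members and of 6 lists of related genes (y axis), 1 point per gene, filled where the adjusted p was under 0.05. Pdk4 and Per1 are the filled points above 0, and Ogdh, Dlst, Ldhb, Pdpr, Esrra and Ppargc1b those below.

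Between knockout-control and wild type, where no member passed, related genes moved in both directions, and their counts stand beside the 6.05% of all genes called (2.55% higher and 3.5% lower). Of 16 PPAR and glucocorticoid targets, 6 rose and 0 fell (median 0.29, with Klf9 among the 6 on 1 knockout-control array with a number), with Fkbp5 up 6.85-fold, Zbtb16 4.99-fold, Sgk1 3.06-fold and Tsc22d3 2.98-fold (limma adjusted p = 0.000141, 0.000141, 0.0121 and 0.00106). Acot1 was also among the 6. The 10 that did not pass ran from -0.54 for Cpt1a to 0.48 for Angptl4 on the log2 scale, with Plin2 at 0.24. Pdk4, which is regulated by some of the same factors, differed by -0.04 in this comparison. Of 17 regulators, Foxo1 (1.87-fold), Foxo3 (1.91-fold) and Rxra (1.79-fold) rose and 0 fell. Foxo1 and Foxo3 encode transcription factors restrained by insulin, and Rxra encodes a partner of the PPARs. One further Rxra probe set stood at -0.01, so the sets of this gene disagreed. A Tsc22d3 set and a Klf9 set stood at -0.41 and -0.25, while the other tested sets of these genes were positive. By the mean of probe sets neither Rxra (0.40, limma adjusted p = 0.169) nor Fkbp5 (2.88, 0.075) passed in this comparison. The Fkbp5 mean lacks the brightest set on knockdown array 2, and all groups share the estimate of spread. Each tested Fkbp5 set passed with every probe set tested (2.78 and 3.06, limma adjusted p = 0.000124 and 0.00011). Of 12 hypoxia targets, 0 rose and 4 fell (median -0.40), with Car9 down 7.69-fold, Ndrg1 3.45-fold, Egln3 2.09-fold and Egln1 1.53-fold. The Ndrg1 set read 3771 and 4075 in wild type and 656.1 and 1878 in knockout-control, where the arrays were far apart. Its log2 difference of -1.79 became -1.05 without knockout-control array 1 and -2.52 without array 2. The other Ndrg1 probe sets gave -1.59, -1.37, -0.91 and -1.54. Without wild-type array 2 another Ndrg1 set was the brightest and stood for the gene, at -0.96, so that value does not measure dependence on this array. The 3 tested probe sets of Pdk1, known to respond to the same hypoxia factor, gave -0.13, -0.40 and -0.21 in this comparison, with 95% intervals from -0.71 to 0.44, -0.79 to -0.02 and -0.59 to 0.17, and none passed. Of 18 genes of pyruvate supply and use, 3 rose and 2 fell. Pcx, pyruvate carboxylase, read 4761 and 5038 in wild type and 10156 and 9368 in knockout-control (1.99-fold), Acly, ATP citrate lyase, rose 1.94-fold, Ldhb fell 1.70-fold and the lactate carrier gene Slc16a3 fell 2.74-fold. Among the sister enzymes Bckdha rose 1.89-fold and Bckdhb fell 1.67-fold, the alpha and beta subunits of one branched-chain E1. Of 11 cofactor genes 1 rose, the thiamine carrier gene Slc19a2 (1.64-fold). Its other tested probe sets gave 0.33 and 0.40 and did not pass with every probe set tested (limma adjusted p = 0.386 and 0.472). Of these 21 calls 4 were kept with each array left out in turn, those of Fkbp5, Zbtb16, Tsc22d3 and Car9, and 17 were lost in some fit (highest limma adjusted p = 0.398, for Egln1).

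Against wild type, knockdown cells combined called changes in all 6 lists, where 10% of all genes were called. Of the 16 PPAR and glucocorticoid targets 6 rose and 0 fell, with Fkbp5 up 6.38-fold on the 1 knockdown array with a number, Zbtb16 3.63-fold, Tsc22d3 3.03-fold and Per1 2.64-fold. Sgk1 and Klf9 were also among the 6, Klf9 with 1 knockdown array with a number. The 10 that did not pass ran from -0.53 for Dusp1 to 0.78 for Acot1 on the log2 scale. Among them were Cpt1a, Angptl4 and Plin2 at 0.13, 0.37 and 0.50, so the count does not stand for PPAR targets of fat cells. A Tsc22d3 set and a Klf9 set stood at -0.19 and -0.16, while the other tested sets of these genes were positive. The other tested Fkbp5 set was up 7.63-fold and passed with every probe set tested (limma adjusted p = 0.000128). By the mean of its probe sets Fkbp5 did not pass (log2 difference 1.05, limma adjusted p = 0.424). That mean takes the cells present, and the brightest Fkbp5 set has none on knockdown array 2. Of 17 regulators 3 rose and 3 fell, among them Rxra up 2.24-fold, Ppargc1b down 7.97-fold, Nr3c1, the glucocorticoid receptor, down 2.27-fold (1508 and 1712 in wild type, 798 and 596.6 in knockdown) and Esrra down 1.89-fold. By the mean of probe sets the Esrra difference here was -0.08 and did not pass (limma adjusted p = 0.924), and that of Rxra was 0.51 and did not pass either (0.0813). Of 18 pyruvate genes 2 rose and 3 fell, with Ldhb down 4.44-fold, Slc16a3 3.26-fold and Pdpr 2.67-fold and Gpt2, a mitochondrial alanine aminotransferase, up 2.53-fold (517.4 and 535.6 against 1477 and 1289). Of 7 sister enzymes Ogdh fell 2.87-fold, Dlst fell 1.93-fold and Bckdha rose 1.48-fold; by the mean of probe sets Dlst did not pass (-0.43, limma adjusted p = 0.122). Of 12 hypoxia targets 4 fell and 0 rose, with Car9 down 12.9-fold, Egln3 2.64-fold, Ankrd37 2.16-fold and Egln1 1.74-fold. Of 11 cofactor genes Slc19a2 rose 1.69-fold. Its other tested probe sets gave 0.19 and 0.39 and did not pass with every probe set tested (limma adjusted p = 0.59 and 0.425). Of these 25 calls 13 were kept in each fit without 1 array that gave a value (5 fits for Fkbp5, which has none without knockdown array 1) and 12 were lost in some fit (highest limma adjusted p = 0.356, for Foxo1).

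The genes whose 6 log2 values ran most like those of Pdk4 were Pcnx3 (Pearson r = 0.994 over 6 arrays), Rnf167 (0.991), Tspan17 (0.991), Rps19 (0.987) and Cdk18 (0.985). With 6 arrays from 3 groups such likeness is a description. In the knockdown step their differences were 0.27, 0.15, 0.54, 0.30 and 0.58 on the log2 scale, each below the 1.19 of Pdk4.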

How the data were processed

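Biotin-labelled total RNA of 6 samples was measured on one-colour oligonucleotide arrays, per the labels. The deposited values are linear intensities of 45037 probe sets. How they were summarised, background-corrected and scaled is not stated in the labels. Values were used as deposited, without further scaling, and empty cells stayed missing. Knockdown array 2 had the lowest median (220.9, with the highest at 242.7), and scaling was varied among the alternatives. Probe sets took their names from the platform annotation, with symbols updated by Entrez identifier (GRCm38.p6 gene table), and 34945 had 1 symbol.

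Values were transformed as log2(intensity + 32). The probe set of highest mean stood for its gene, and those below the 40th percentile (163.6) were dropped, leaving 13658 genes. One limma model (3.58.1, R 4.3.3) with group means was fitted to all 6 arrays (3 residual and 5.45 prior degrees of freedom) and adjusted by Benjamini-Hochberg over the genes of each comparison. A second fit tested every probe set with 1 symbol above that level. The procedure was tested on simulated data with independent noise and no missing cells, which does not cover the missing values or the dimmer array here. Precision is limited by the number of arrays; exact permutation of 2 against 2 gives p = 0.333 at the least, so that test was not used. The members, the 6 lists of related genes and the alternatives were chosen with earlier results of these data known. Named were all members, up to 4 called genes per list and comparison with the largest change and the 5 genes most like the member of widest range. Outside this rule, Dld, Mpc1, Ldha, Ppara, Ppard, Pparg, Angptl4, Plin2, Cpt1a, Dusp1, Acot1, Klf9 and uncalled sister enzyme genes were named after their values were seen. So was Sgk1 in knockdown against wild type. Of 89 list genes, 81 were tested.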

Additional observations from a re-analysis of the deposited data

How the results depend on the processing

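Of 19 alternatives, 1 (the brightest probe set without a missing cell) was added after the gap in Pdha1 was seen. The count of members called was 1 in the knockdown step. It was 0 with no filter, 0 with the mean of probe sets, 0 with the replicate block, 2 with trend and robust settings (Pdk4 and Pdhb) and 0 to 3 with each array left out in turn. In knockdown against wild type it was 1, with 2 when every probe set was tested and 1 to 2 with each array left out. In knockout-control against wild type it stayed at 0 in limma under all 19. Over the 30 member values, 562 refits gave 9 changes of call and 10 changes of sign, none of the latter in a called value. All-gene counts moved more: in the knockdown step 114 genes passed, 9 with no filter, 13 with the mean of probe sets, 22 with the replicate block, 47 with the arrays compared alone, 325 with trend and robust settings, 381 after quantile normalization and 7 to 560 with an array left out. Between knockout-control and wild type 826 passed, against 1653 after quantile normalization, 364 with no filter and 410 with the replicate block; in knockdown against wild type 1365 passed, against 2301, 585 and 735. Of the calls in the knockdown step 37 were higher and 77 lower, against 192 and 189 after quantile normalization and 80 and 87 with arrays centred on the median; against wild type these were 546 and 819, 1269 and 1032, and 848 and 851. With every probe set tested 1435 sets passed between knockout-control and wild type and 2256 in knockdown against wild type; leaving out an array gave 238 to 1783 and 347 to 2337 genes, and the arrays compared alone gave 1786 and 992. The mean of probe sets gave 474 and 778. Pdha1 has no value when genes with a missing cell are left out, and none in the knockdown comparisons without knockdown array 1. The replicate numbers share no label of a common batch, and differences between replicates correlated at r = 0.202 (wild type and knockout-control), -0.502 (knockout-control and knockdown) and -0.147 (wild type and knockdown) across genes, so the numbers were not taken as pairs. Dim members, such as the phosphatase genes, have less signal over background, and with 2 arrays a group only large changes pass.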
